A study of Mus musculus with 16 samples.

Results

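The FoxO transcription factors Foxo1, Foxo3 and Foxo4 and 5 genes that FoxO factors or cellular stress are known to switch on (Eif4ebp1, Ddit4, Depp1, Sesn1 and Cdkn1a) were followed through mouse gastrocnemius muscle with and without a tumor and with and without treadmill training. The 8 genes were chosen by name, as FoxO factors and as their targets, out of the 35415 genes in the tables, and all 8 were among the 14749 genes with enough reads to be tested. Total RNA was taken from 16 male wild-type BALB/c mice, 8 weeks old when bought, and sequenced as polyA RNA, 4 mice of the 12 in each group. The C group was tumor-free and untrained, the E group tumor-free and trained, the T group tumor-bearing and untrained, and the TE group tumor-bearing and trained. The tumor was CT26, a line of BALB/c colon carcinoma cells, placed under the skin of the hind limb, and the tumor-free mice had saline at that site under the same anesthesia. By the paper's account tumors formed in all 12 injected T mice, but not in all 12 injected TE mice. Training began the day after the injection and was forced running at 14 m/min, with 60 min a day on 6 days of each of 4 weeks. Untrained mice stood on a treadmill that did not move for 10 to 15 min a day.

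FoxO factors sit at the end of insulin and growth factor signaling. While the kinase AKT is active it phosphorylates them and they are held in the cytoplasm, and when AKT activity drops, as in fasting or under glucocorticoids, they enter the nucleus and switch on genes for protein breakdown, autophagy, cell cycle arrest and stress defense. In skeletal muscle they are best known for raising the atrophy ubiquitin ligases Fbxo32 (atrogin-1) and Trim63 (MuRF1), and since their activity is set largely by location in the cell, their mRNA level is only one part of it.

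Library totals ran from 35628211 to 37635741 counts, so that depth differed little among groups. Muscle identity was plain in every library: the 10 fibre markers (among them Acta1, Ckm and Myh4) summed to between 116813 and 141985 CPM (counts scaled by library total and TMM factor). Markers of other cells moved with the tumor too. The neutrophil markers summed to 2.28 to 17 CPM in the C mice and 11.3 to 55.6 CPM in the T mice, with 5 of 10 tested called higher and 1 of the 14 listed at 0 in every library, and 4 of 6 tested erythroid markers were called higher. Among endothelial markers, 1 of 13 tested was called lower in T against C, Kdr, the main VEGF receptor (log2 fold change -0.68, adjusted p = 0.0457 by edgeR), and Emcn was called lower as well in the average over training (-0.40, adjusted p = 0.0189), as was Gsn among the 10 fibroblast markers (-0.45, adjusted p = 0.0378). Of 16 lymphocyte and lymph node markers edgeR called 0 in T against C, with 8 lower at an unadjusted p under 0.05, and they summed to 9.36 to 64.6 CPM in the C mice and 6 to 11 CPM in the T mice. In the E mice they summed to 13.8 to 51.8 CPM and in the TE mice to 5.93 to 172 CPM, the highest being TE4, with 15 of 16 higher in TE than in T at an unadjusted p under 0.05. The fibroblast markers summed to 1799 to 2575 CPM in C, 2703 to 3526 in E, 1569 to 2479 in T and 2032 to 2186 in TE, and at an unadjusted p under 0.05 there were 10 of 10 higher in E than in C and 8 of 10 lower in TE than in E. Macrophage markers summed to 80 to 150 CPM in the C mice and 108 to 233 in the T mice with 0 of 12 called by edgeR, though 6 had an unadjusted p under 0.05. The 9 adipocyte markers summed to 1704 to 1977 CPM in C, 1507 to 2142 in E, 1754 to 2921 in T and 1489 to 1808 in TE. These sums came largely from Car3 (742 to 2090 CPM) and Fabp4 (383 to 528 CPM), so they say little about the scarcer markers. Adipoq, for one, had 1.49 to 9.36 CPM in C, 5.24 to 32.3 in E, 1.79 to 23 in T and 6.88 to 15.4 in TE. The median log2 fold change of the 9 markers was 0.99 in T against C (8 of 9 above 0), 1.34 in E against C and -0.53 in TE against E, with 0 of 9 called by edgeR in each and 1, 4 and 0 at an unadjusted p under 0.05. The part of these cells in the results on the 8 genes was not tested, and in whole muscle fewer cells of a type cannot be told apart from less RNA per cell.

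Levels were first compared between genes in FPKM, the deposited values per gene length. In the C mice Eif4ebp1, whose protein 4E-BP1 holds back cap-dependent translation, had the highest level at 39.0 ± 4.06 FPKM (SD, n = 4), followed by Foxo4 at 20.4 ± 1.57. Depp1, which codes for a small regulator of autophagy, stood at 11.7 ± 3.16 FPKM. Ddit4 (REDD1, an inhibitor of mTORC1) was at 7.96 ± 0.696, Sesn1 (sestrin 1, which also restrains mTORC1) at 7.16 ± 0.426 and Cdkn1a (p21, an inhibitor of cyclin-dependent kinases) at 6.09 ± 1.30 FPKM. The other two factors were the lowest of the 8, with Foxo1 at 4.46 ± 0.475 and Foxo3 at 4.46 ± 0.155 FPKM. The remaining FoxO gene, Foxo6, was lower still at 2.34 ± 0.127 FPKM.

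**Figure D1:**
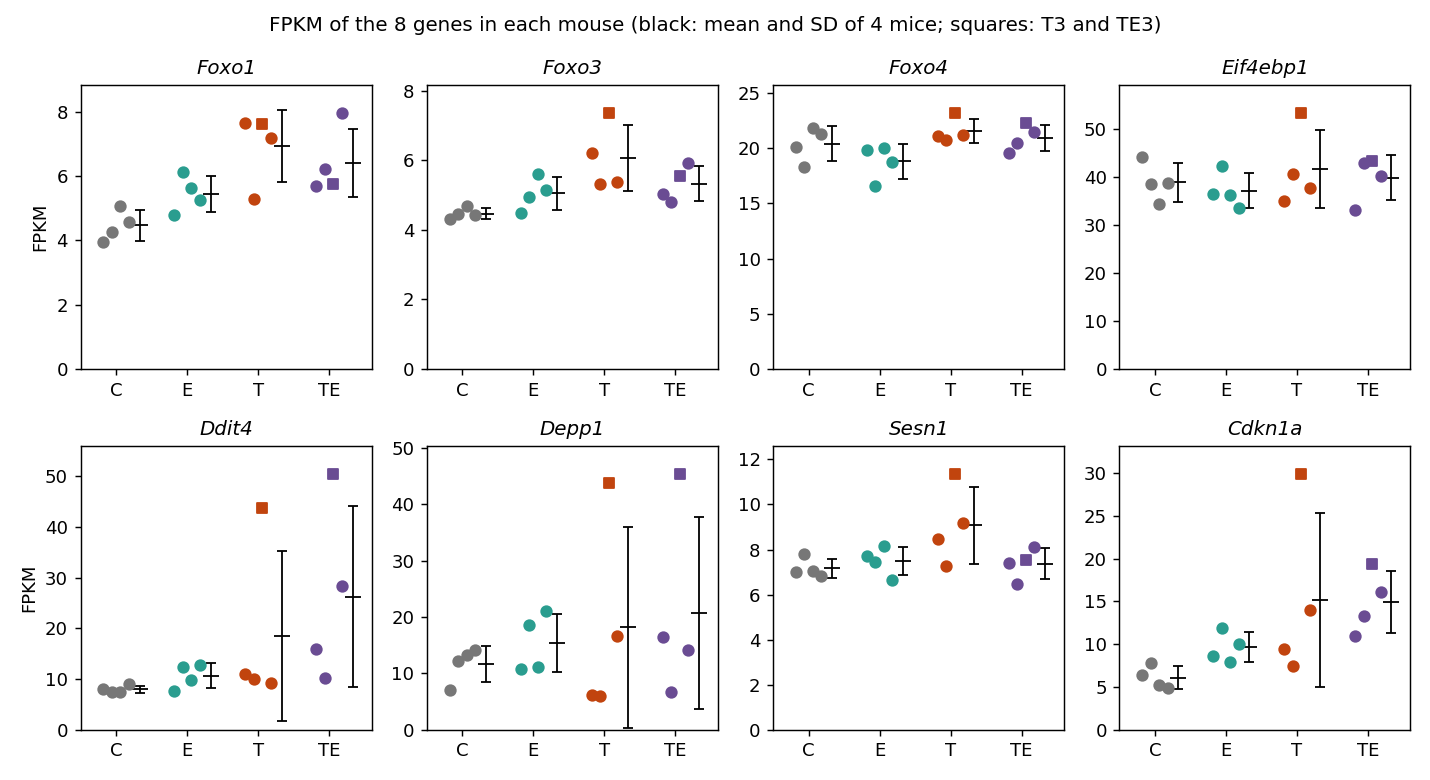
FPKM (vertical axes, each from 0) of the 8 genes in each of the 16 mice, by group (horizontal axis), with the mean and SD of 4 mice in black and the third T and TE mice as squares. Foxo1 and Foxo3 lie higher in all 4 T mice than in all 4 C mice, while for Ddit4 and Depp1 the third T and TE mice, between 43.70 and 50.45 FPKM, stand above the rest of their groups.

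Foxo1 rose in the muscle of tumor-bearing mice. Its values in the 4 C mice were 3.96, 4.26, 5.08 and 4.56 FPKM. In the T mice they were 7.64, 5.28, 7.61 and 7.17 FPKM. Every T mouse was above every C mouse, although the second T mouse exceeded the highest C mouse by little. The E mice held 4.80, 6.12, 5.61 and 5.26 FPKM, and the TE mice 5.69, 6.20, 5.76 and 7.95. Group means therefore ran from C through E (5.45 ± 0.559) and TE (6.40 ± 1.06) to T (6.93 ± 1.12), and each group overlapped with its neighbour in that order. In edgeR's quasi-likelihood test on the counts, with Benjamini-Hochberg adjustment over all tested genes, the log2 fold change of T against C was 0.66 (SE 0.123, adjusted p = 0.0195, 1.58-fold, higher in 4 of 4 mice). Averaged over untrained and trained mice, the tumor difference was 0.47 (SE 0.087, adjusted p = 0.00948 by edgeR).

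Foxo3, the factor most closely tied to atrogin-1 and to autophagy in muscle, rose as well, by a smaller amount. The C mice lay close together at 4.31, 4.44, 4.68 and 4.42 FPKM. The T mice had 6.21, 5.32, 7.35 and 5.37 FPKM, so these groups were fully apart. The E mice, at 4.49, 4.94, 5.61 and 5.14 FPKM, and the TE mice, at 5.02, 4.81, 5.56 and 5.93 FPKM, overlapped with each other. The lowest E mouse lay within the C range, and the highest E mouse and 2 TE mice lay within the T range. The log2 fold change of T against C was 0.47 (SE 0.0944, adjusted p = 0.0335 by edgeR, 1.38-fold), and the tumor difference averaged over both training states was 0.30 (SE 0.0667, adjusted p = 0.0315 by edgeR). Foxo4, the most abundant factor and one encoded on the X chromosome, ranged from 16.56 to 23.15 FPKM over all 16 mice. Its T against C value was 0.11 on the log2 scale (95% interval -0.05 to 0.26, adjusted p = 0.538 by edgeR). Foxo6 was not called in T against C either, with a log2 fold change of -0.56 (95% interval -1.13 to 0.00, adjusted p = 0.355 by edgeR).

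The calls of Foxo1 and Foxo3 in T against C leaned on single libraries and on the test, while their direction did not. Foxo1 kept a log2 fold change of 0.59 to 0.77 when any 1 of the 16 libraries was left out, and Foxo3 one of 0.38 to 0.52. The edgeR adjusted p of Foxo1 was over 0.05 without C1 (0.0502), C2 (0.0689), C4 (0.0815), T1 (0.0562) or T3 (0.0701), and that of Foxo3 without C1 (0.0646), C2 (0.0914), C3 (0.0785), C4 (0.118), T1 (0.07) or T3 (0.112). Averaged over both training states, Foxo1 was called in 16 of 16 such fits and Foxo3 in 6 of 16, with adjusted p between 0.0163 and 0.0795 for Foxo3. The Foxo3 call was lost without any 1 of the C mice, E1, E2, E4, T1, TE3 or TE4. Both T against C calls were also lost with limma on FPKM at a pseudocount of 1 or 0.1 (adjusted p = 0.0857 and 0.0656 for Foxo1, 0.105 and 0.0925 for Foxo3) and with only the 2 groups compared by edgeR (0.057 for Foxo1 and 0.0908 for Foxo3). In the average, limma gave 0.12 and 0.114 for Foxo3.

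Cdkn1a was the third of the 8 genes to be called, in the tumor difference averaged over training. Its C mice had 6.40, 7.80, 5.25 and 4.93 FPKM and its E mice 8.60, 11.90, 7.93 and 10.01. The T mice had 9.46, 7.49, 29.89 and 13.94 FPKM and the TE mice 10.90, 13.28, 19.38 and 16.13. All TE mice were above all C mice, the second T mouse fell within the C range, and the third T mouse stood at more than any other. Over both training states Cdkn1a rose by 1.01 on the log2 scale with the tumor (SE 0.223, adjusted p = 0.0295 by edgeR, 2.01-fold). For T against C alone the difference was 1.33 (95% interval 0.66 to 2.00, adjusted p = 0.0662 by edgeR) and 0.79 without T3, but it was called by DESeq2 (adjusted p = 0.017), by edgeR with no filter on low counts (0.0176) and by edgeR without T2 (1.55, adjusted p = 0.0138). For TE against E it was 0.68 (95% interval 0.03 to 1.34, adjusted p = 0.523). The average over training was called in 10 of 16 fits with 1 library left out, at adjusted p from 0.00691 to 0.0772. It was not called without C3 (0.066), C4 (0.0772), E1 (0.0621), E3 (0.0767), E4 (0.0538) or TE3 (0.0731), nor with limma on FPKM (0.0913 and 0.0806 with a pseudocount of 1 and 0.1). With the replicate number as a block edgeR did not call it either (adjusted p = 0.0636).

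Ddit4 was spread widely among the tumor-bearing mice. Tumor-free mice were low, at 8.0, 7.47, 7.44 and 8.93 FPKM in C and 7.73, 12.40, 9.73 and 12.85 in E. The T mice had 11.04, 10.01, 43.70 and 9.22 FPKM. The TE mice had 15.98, 10.20, 50.45 and 28.30 FPKM. All T mice lay above all C mice, but 3 of them at 11.04 FPKM or less, whereas the third mouse of each tumor-bearing group was far above. The log2 fold change of T against C was 1.22 (95% interval 0.22 to 2.23, adjusted p = 0.248 by edgeR) and dropped to 0.38 without T3. The average over both training states was 1.29 (95% interval 0.58 to 1.99, adjusted p = 0.0699 by edgeR), and 0.59 without T3 and TE3, a check added after the values were seen. With all mice the average was called by DESeq2 (adjusted p = 0.0292) and by edgeR with no filter on low counts (adjusted p = 0.0207). With 1 library left out edgeR called it in 3 of 16 fits, without T2 (0.0431), T4 (0.0478) or TE2 (0.039). For TE against E the log2 fold change of Ddit4 was 1.35, and 0.79 without TE3.

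Depp1 followed the same mice with no group difference that passed. The C mice had 7.05, 12.22, 13.18 and 14.15 FPKM and the E mice 10.85, 18.51, 11.08 and 21.09. The T mice had 6.14, 6.05, 43.76 and 16.57 FPKM and the TE mice 16.48, 6.71, 45.34 and 14.19. Hence 2 of 4 T mice were below every C mouse and 2 of 4 above, and the ranges of all groups overlapped. The log2 fold change of T against C was 0.65 (95% interval -0.55 to 1.85, adjusted p = 0.648 by edgeR) and turned to -0.24 without T3. That of TE against E was 0.48 (95% interval -0.70 to 1.67, adjusted p = 0.836 by edgeR) and turned to -0.28 without TE3.

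Sesn1 and Eif4ebp1 were flatter. Sesn1 had 6.84 to 7.78 FPKM in the C mice, 6.63 to 8.14 in the E mice and 6.45 to 8.13 in the TE mice, while the T mice had 8.46, 7.28, 11.35 and 9.19. Its log2 fold change of T against C was 0.37 (95% interval 0.15 to 0.58, unadjusted p = 0.00228 and adjusted p = 0.108 by edgeR). With DESeq2 in place of edgeR the adjusted p was 0.0398. With 1 library left out edgeR called it in 1 of 16 fits, without T2 (0.455, adjusted p = 0.0205), and without T3 the log2 fold change was 0.25. Eif4ebp1 ranged from 33.10 FPKM (TE1) to 53.35 FPKM (T3) over all mice, with all 4 groups overlapping, and its log2 fold change of T against C was 0.12 (95% interval -0.14 to 0.38, adjusted p = 0.718 by edgeR), which turned to -0.0109 without T3.

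**Figure D2:**
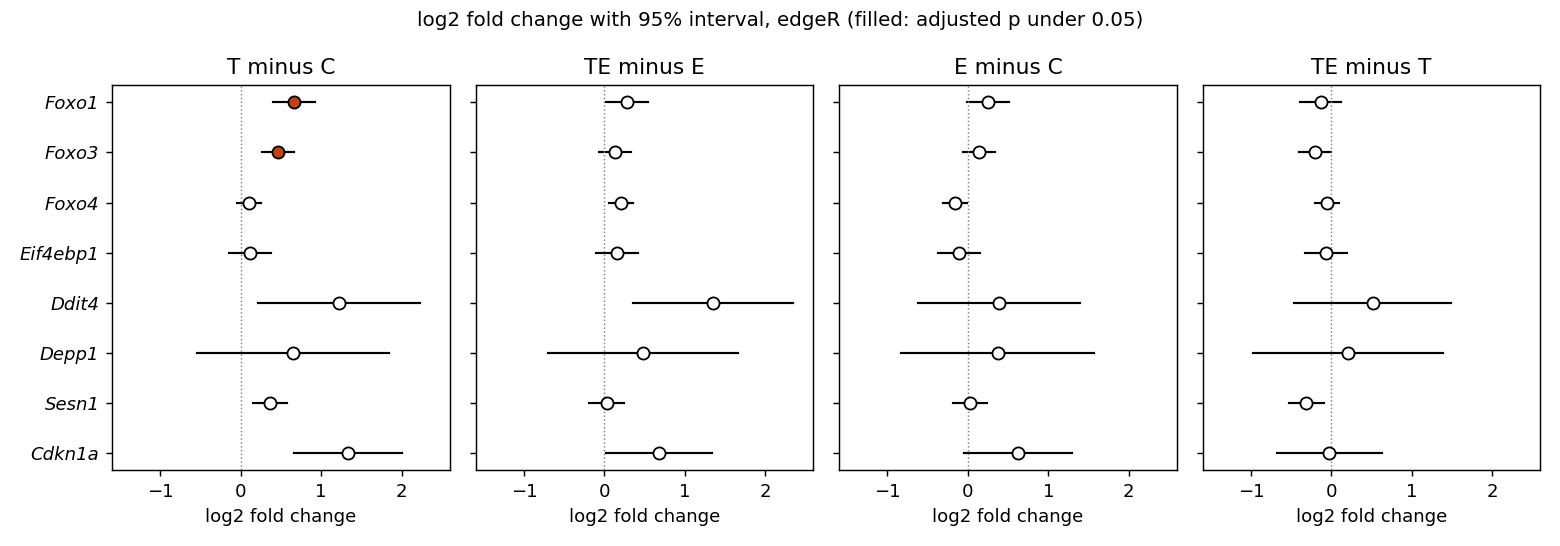
log2 fold change (horizontal axis, with the 95% interval as a line) of the 8 genes in the 4 pairwise comparisons, with filled points where the edgeR adjusted p was under 0.05. Only Foxo1 (0.66) and Foxo3 (0.47) in T minus C are filled, and the intervals of Ddit4 and Depp1 are the widest.

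In T against C 2 of the 8 genes were called, both higher, while 0.678% of the tested genes were called in either direction and 0.515% higher. At an unadjusted p under 0.05 there were 5 of 8, all higher (Foxo1, Foxo3, Ddit4, Sesn1 and Cdkn1a), against 14.2% of all genes in either direction and 8.23% higher. All 8 log2 fold changes were above 0 with a median of 0.56, whereas 49.7% of all genes were above 0 and their median was 0.00 to 2 decimals. Without T3, however, Eif4ebp1 turned to -0.0109 and Depp1 to -0.24. Values in CPM did not overlap between T and C for 3 of 8 (Foxo1, Foxo3 and Ddit4), against 6.86% of all genes. For the tumor difference averaged over training, 3 of 8 were called, all higher, against 1.36% of all genes in either direction and 0.739% higher. The unadjusted p was under 0.05 for 6 of 8, all higher, against 14.2% and 7.41%.

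In trained mice alone the tumor difference did not pass for any of the 8 genes. By edgeR 0 of 8 were called in TE against E (0.231% of all genes), and DESeq2 and limma on FPKM also called 0. At an unadjusted p under 0.05 edgeR gave 4 of 8 against 9.23% of all genes, which were Foxo1 (log2 fold change 0.28, adjusted p = 0.498), Foxo4 (0.21, adjusted p = 0.345), Ddit4 (1.35, adjusted p = 0.35) and Cdkn1a (0.68). Foxo4 was the 1 of 8 genes whose CPM values did not overlap between TE and E (6.62% of all genes), at 98.1 to 116 CPM against 82.4 to 97.1 CPM, though in FPKM the lowest TE mouse (19.57) was under the highest E mouse (20.03). Foxo3 had a log2 fold change of 0.13 in TE against E (95% interval -0.07 to 0.33).

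Training in tumor-free mice gave 0 of 8 calls by edgeR, DESeq2 and limma, where edgeR called 0.0881% of all genes. At an unadjusted p under 0.05 there was 1 of 8, against 14.2% of all genes, and it was Foxo4 at a log2 fold change of -0.16 (95% interval -0.31 to -0.01, adjusted p = 0.337 by edgeR). In CPM 0 of 8 were without overlap between E and C, against 9.08% of all genes. Cdkn1a came nearest: its FPKM ranges were apart, at 7.93 to 11.90 in E and 4.93 to 7.80 in C, but in CPM the lowest E mouse (15.4) was just under the highest C mouse (15.6), and the log2 fold change was 0.62 (95% interval -0.05 to 1.29, adjusted p = 0.392 by edgeR). Foxo1 had 0.25 (95% interval -0.01 to 0.51) and Ddit4 0.39 (95% interval -0.62 to 1.39).

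Training in tumor-bearing mice gave 0 of 8 calls as well by edgeR, DESeq2 and limma, in a comparison where edgeR called 0% of all genes. Foxo3 and Sesn1 were the 2 of 8 with an unadjusted p under 0.05, against 5.88% of all genes. Sesn1 was lower in TE than in T at a log2 fold change of -0.31 (95% interval -0.53 to -0.10, adjusted p = 0.724 by edgeR), and Foxo3 at -0.20 (95% interval -0.40 to -0.00, adjusted p = 0.847). Without T3 they were nearer to 0, Sesn1 at -0.20 and Foxo3 at -0.11. For Foxo1 the value with all mice was -0.13 (95% interval -0.39 to 0.12), and Cdkn1a was at -0.03 (95% interval -0.68 to 0.62), which turned to 0.51 without T3. Ddit4 and Depp1 had values above 0, at 0.51 (95% interval -0.46 to 1.48) and 0.21 (95% interval -0.97 to 1.38), which turned to -0.0431 and -0.55 without TE3. The values of 0 of 8 genes were without overlap between TE and T, against 2.58% of all genes.

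Whether the training difference itself depended on the tumor was tested as an interaction, with 0 of 8 calls by edgeR, DESeq2 and limma and 0% of all genes called by edgeR. At an unadjusted p under 0.05 there were 3 of 8, against 9.21% of all genes, and all were negative. These were Foxo1 (-0.38, unadjusted p = 0.0409, adjusted p = 0.54 by edgeR), Foxo3 (-0.34, unadjusted p = 0.0204, adjusted p = 0.484) and Sesn1 (-0.34, unadjusted p = 0.0316, adjusted p = 0.522). Thus for Foxo1 and Foxo3, called with the tumor in untrained mice and not in trained mice, the difference between both effects did not pass the adjusted test.

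The third T mouse and the third TE mouse stood apart in Ddit4, Depp1 and Cdkn1a. Relative to the mean CPM of the other 3 mice of the group, T3 was 4.15-fold for Ddit4, 4.41-fold for Depp1 and 2.79-fold for Cdkn1a. TE3 was 2.89-fold for Ddit4, 3.77-fold for Depp1 and 1.49-fold for Cdkn1a. The other 5 genes were nearer to the rest of their groups. The same ratios were 1.36 and 1.15 for Eif4ebp1, 1.31 and 1.06 for Sesn1, 1.09 and 0.899 for Foxo1, 1.25 and 1.09 for Foxo3, and 1.06 and 1.12 for Foxo4. The totals of T3 and TE3 (37563279 and 37210488 counts) were the highest of their groups, within the range of all 16 libraries, and their endothelial marker sums, at 1281 and 1140 CPM, were the highest of the T and TE groups. TE4 was close to TE3 at 1123 CPM, and only 2 of 13 endothelial markers (Tek and Erg) were highest in both T3 and TE3. In both mice 5 of the 8 genes (Foxo4, Eif4ebp1, Ddit4, Depp1 and Cdkn1a) were at the top of the group, which held for 8.67% of all tested genes. This count was made after the values were seen. Without both mice, edgeR called 0 of 8 genes in T against C (4 of 8 at an unadjusted p under 0.05), with log2 fold changes of 0.63 for Foxo1 (adjusted p = 0.0817) and 0.38 for Foxo3 (adjusted p = 0.125). It called 2 of 8 in the average over training, Foxo1 (adjusted p = 0.0229) and Cdkn1a (adjusted p = 0.0439). The shares of all genes given above come from all 16 libraries and not from this fit, so these counts have no background beside them.

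**Figure D3:**
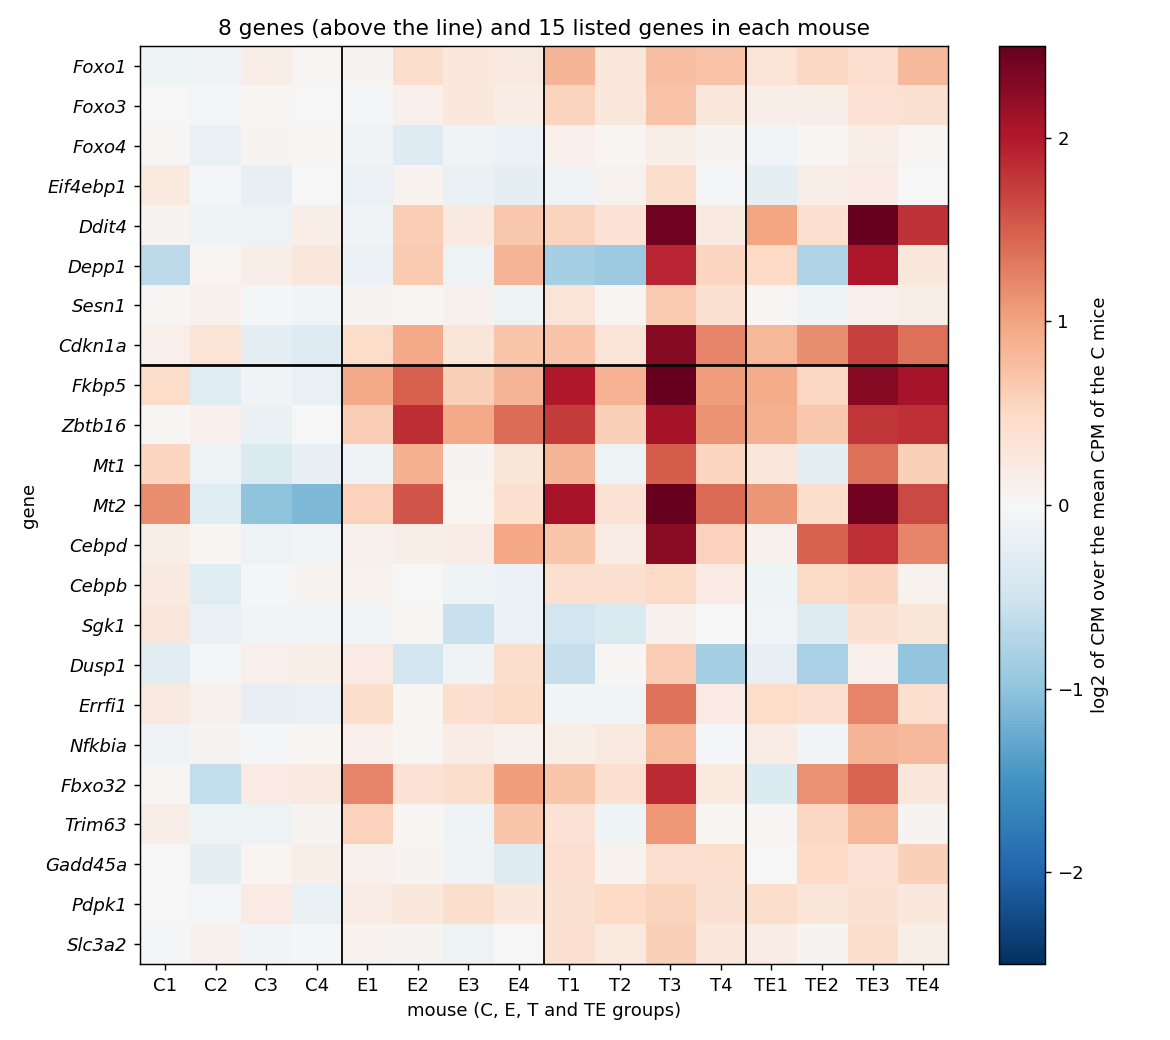
log2 of each mouse's CPM over the mean CPM of the 4 C mice (color, cut at 2.5 in both directions) for the 8 genes and for 15 other listed genes (rows) in the 16 mice (columns). The columns T3 and TE3 are dark for Ddit4 (72.8 and 87.7 CPM), Depp1 (57 and 61.6 CPM) and Fkbp5 (142 and 114 CPM), and pale for Foxo4. The 15 include the 9 glucocorticoid receptor list genes picked for being highest in both T3 and TE3. High values of these 9 in the 2 columns therefore follow from the choice.

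No pair of the 8 genes passed the correction when their variation within groups was compared. Deviations of log2 CPM from the group mean over 16 mice were compared for 28 pairs, and Pearson's r was positive in 28, though without T3 and TE3 it was negative in 7 of them (lowest -0.304, for Foxo4 and Cdkn1a), and Spearman's rho was negative in 1. The highest was between Ddit4 and Depp1 (r = 0.832, permutation p = 0.0068, adjusted p = 0.0952, and rho = 0.65, permutation p = 0.0225, adjusted p = 0.194). Without the 2 farthest mice, which were T3 and TE3, it was 0.574. Foxo3 and Ddit4 gave r = 0.774 (permutation p = 0.00539, adjusted p = 0.0952) and rho = 0.712 (permutation p = 0.0155, adjusted p = 0.194), and r = 0.65 without T2 and T3. Foxo1 and Foxo3 gave r = 0.584 (permutation p = 0.0689, adjusted p = 0.252) and rho = 0.576 (permutation p = 0.05, adjusted p = 0.228), and r = 0.419 without T2 and TE4.

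The start regions of Ddit4, Depp1 and Cdkn1a, the 3 genes with the largest ratios in T3 and TE3, are shown because a FoxO site would be looked for there. Each line gives the 250 bases before the start of the canonical transcript in GRCm39 (GENCODE vM39), 5′ to 3′ on the gene's strand, with any match to a forkhead core in capitals.
Ddit4, chr10:59787663-59787912, minus strand: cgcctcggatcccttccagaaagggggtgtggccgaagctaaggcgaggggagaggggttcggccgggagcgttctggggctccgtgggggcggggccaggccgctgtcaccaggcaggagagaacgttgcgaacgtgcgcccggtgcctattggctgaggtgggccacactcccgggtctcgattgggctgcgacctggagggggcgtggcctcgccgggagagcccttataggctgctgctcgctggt
Depp1, chr6:116627320-116627569, plus strand: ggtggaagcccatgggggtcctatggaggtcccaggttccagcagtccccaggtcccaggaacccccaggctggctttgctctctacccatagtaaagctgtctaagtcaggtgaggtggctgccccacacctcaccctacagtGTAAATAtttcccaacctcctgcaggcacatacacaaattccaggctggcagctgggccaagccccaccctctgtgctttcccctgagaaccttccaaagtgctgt
Cdkn1a, chr17:29312488-29312737, plus strand: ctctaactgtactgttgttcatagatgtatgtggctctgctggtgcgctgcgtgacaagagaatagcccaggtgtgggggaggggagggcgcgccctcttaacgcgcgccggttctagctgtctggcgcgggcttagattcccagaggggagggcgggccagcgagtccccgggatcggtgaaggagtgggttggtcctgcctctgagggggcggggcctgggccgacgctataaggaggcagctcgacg
The motifs searched on both strands were the FoxO core GTAAACA and the core of the insulin response sequence, CAAAACA. Forkhead variants of the FoxO core were searched as well, the first being GTAAATA, the second being ATAAACA, and the last being ATAAATA. These 3 variants were added after these sequences had been read. Depp1 has 1 match, GTAAATA from base -106 to -100, and Ddit4 and Cdkn1a have 0. Of the 8 genes, 2 have a match, the other being Foxo4 with CAAAACA from -245 to -239. Among 21770 windows of the same length before protein-coding genes, 17.9% hold at least 1 of these motifs, 2.72% GTAAACA, 2.75% GTAAATA and 6.13% CAAAACA. A match is only a run of letters, and a missing one tells nothing about the factor, since FoxO sites also lie farther from the start.

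Positions of the 8 genes come from the same annotation. Foxo1 lies at chr3:52175757-52260642, Foxo3 at chr10:42057837-42154007, Foxo4 at chrX:100298073-100304479 and Eif4ebp1 at chr8:27750350-27805206. Ddit4 lies at chr10:59785491-59788492, Depp1 at chr6:116627570-116629755, Sesn1 at chr10:41685931-41784423 and Cdkn1a at chr17:29309936-29319701. Foxo3 and Ddit4 are on the minus strand and the rest on the plus strand. Sesn1 shares 548 exonic bases (10.9% of its own) with Cep57l1 on the opposite strand, Foxo1 shares 674 (7.27%) with Gm20402, and Cdkn1a shares 504 (8.34%) with the antisense transcript Dino. The strand setting of the counting is not given in the sources used here, so that reads from these stretches cannot be told apart. Depp1 overlaps Rassf4 on the opposite strand without shared exons, and Rassf4 had 5.73 CPM in T3 and 3.6 CPM in TE3, where Depp1 had 57 and 61.6 CPM.

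**Figure D4:**
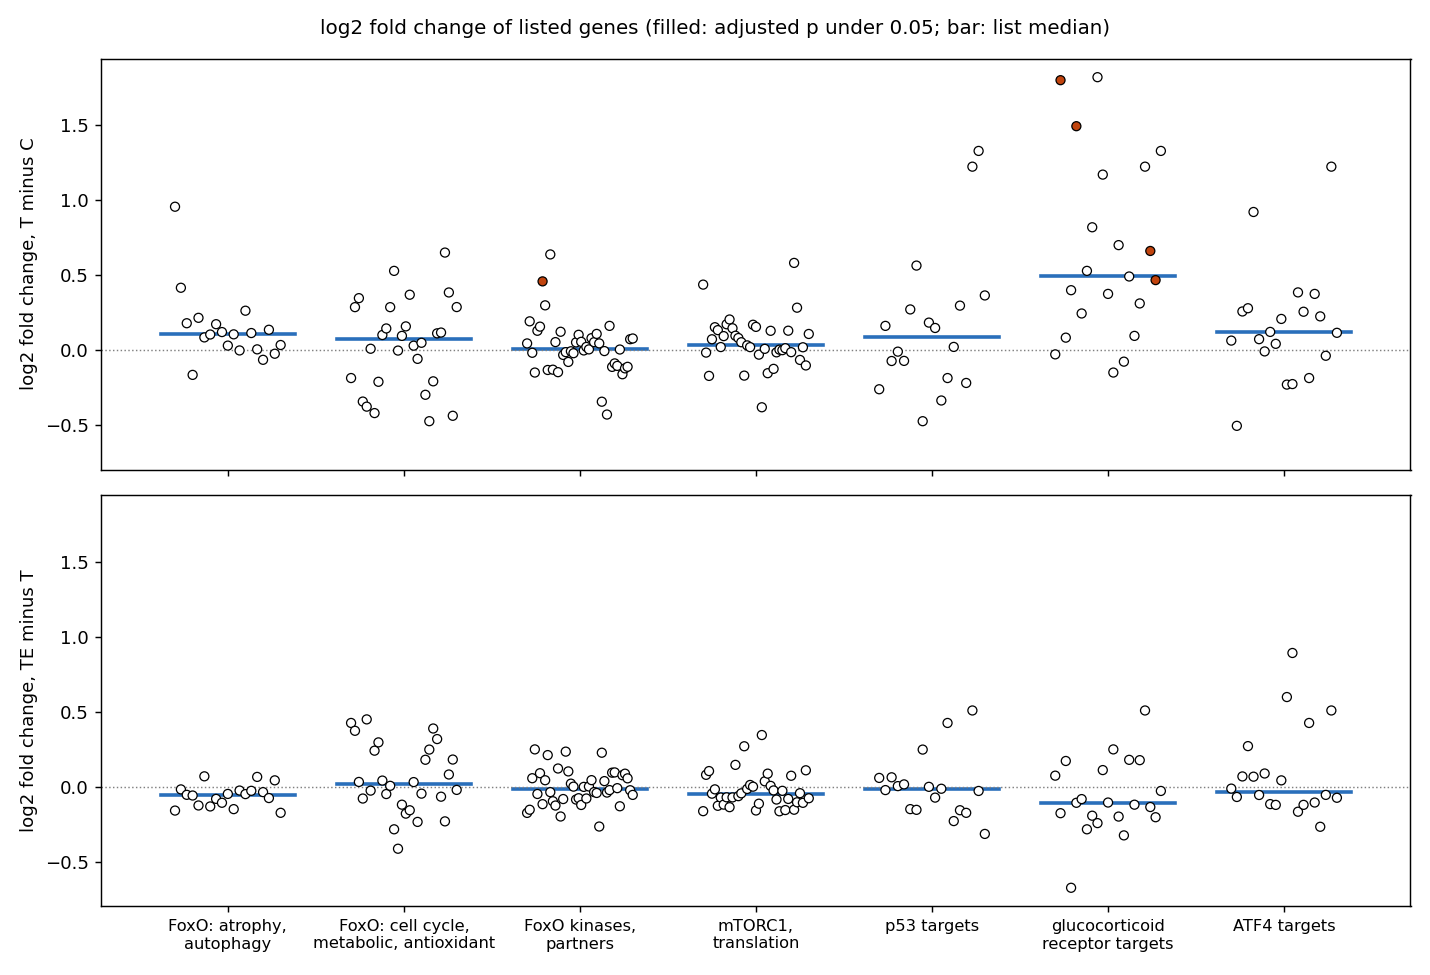
log2 fold change (vertical axes) of every tested gene of 7 lists (horizontal axis) in T minus C (upper panel) and TE minus T (lower panel), with the list median as a bar and filled points where the edgeR adjusted p was under 0.05. The glucocorticoid receptor list has 4 filled points and a median of 0.49 in T minus C, the kinase and partner list has 1 (Pdpk1), and TE minus T has none in any of the 7 lists.

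The classical FoxO targets of muscle wasting were not called with the tumor. Of 19 atrophy and autophagy targets, edgeR called 0 in T against C, with 3 at an unadjusted p under 0.05, all higher, and a median log2 fold change of 0.11. Of all tested genes 0.678% were called in T against C, and at an unadjusted p under 0.05 there were 8.23% higher and 14.2% in either direction, which also holds as the background of the lists that follow. Fbxo32 (atrogin-1) had a log2 fold change of 0.96 (95% interval 0.17 to 1.75, adjusted p = 0.249 by edgeR), with 233 to 417 CPM in the C mice and 421 to 1299 CPM in the T mice. The tumor-free trained E mice, at 457 to 833 CPM, were above every C mouse too, and the TE mice had 282 to 979 CPM. In TE against E its log2 fold change was -0.01 (95% interval -0.80 to 0.77). Trim63 (MuRF1) had 0.42 (95% interval -0.08 to 0.92, adjusted p = 0.452). Fbxo32 and Trim63, too, were highest in the third T and TE mice, with Fbxo32 at 1299 and 979 CPM. Ulk1, which starts autophagy, had 0.26 (adjusted p = 0.155), and Fbxo31 had 0.22 (adjusted p = 0.207).

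Among 28 tested FoxO targets in cell cycle, metabolism and antioxidant defense, 0 were called in T against C, with 5 higher and 1 lower at an unadjusted p under 0.05 and a median of 0.07. Gadd45a, a growth arrest gene that muscle also raises when it wastes, rose in the average over training, by 0.39 on the log2 scale (SE 0.0907, adjusted p = 0.0402 by edgeR), and was called in 4 of 16 fits with 1 library left out (adjusted p from 0.0112 to 0.0885). It was not called with limma on FPKM (0.0907 and 0.0874 with a pseudocount of 1 and 0.1) or without T3 and TE3 (0.0945). Of 42 kinases, phosphatases and partners of FoxO factors, 1 was called in T against C, with a list median of 0.01. It was Pdpk1 (PDK1), the kinase that activates AKT, which rose by 0.46 (SE 0.0815, adjusted p = 0.0147 by edgeR). The C mice had 29.2, 28.8, 34.1 and 26 CPM of Pdpk1 and the T mice 38.4, 41.8, 43.6 and 38.7 CPM, with no overlap. Its call was kept in 14 of 16 fits with 1 library left out and lost without C4 (adjusted p = 0.0815) or T3 (0.059). It was also lost without T3 and TE3 together (0.0799), with only the 2 groups compared (0.0701) and with limma on FPKM (0.0883 and 0.0778 with a pseudocount of 1 and 0.1).

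Of 37 genes of mTORC1 and cap-dependent translation, the pathway that Ddit4, Sesn1 and Eif4ebp1 restrain, 0 were called in T against C, with 7 higher and 1 lower at an unadjusted p under 0.05 and a median of 0.03. Eif4ebp2, a relative of Eif4ebp1, had 0.44 (adjusted p = 0.173 by edgeR) and Castor1, an arginine sensor upstream of mTORC1, 0.58 (adjusted p = 0.184). Cdkn1a, Sesn1 and Ddit4 are p53 targets as well. Of 18 tested p53 targets, 0 were called in T against C, with 6 higher and 2 lower at an unadjusted p under 0.05 and a median of 0.09. These 3 genes are among the 18 and make up 3 of the 6 higher ones. Mdm2, the p53 ubiquitin ligase, had 0.16 (adjusted p = 0.243) and Tigar -0.34 (adjusted p = 0.178). Of 20 tested ATF4 targets 0 were called in T against C (3 higher, Ddit4 among them, and 1 lower at an unadjusted p under 0.05, median 0.12), and Slc3a2, a chain of amino acid transporters, rose in the average over training by 0.30 (SE 0.0629, adjusted p = 0.0227 by edgeR, called in 14 of 16 fits with 1 library left out, but with limma on FPKM not called, at 0.0961 and 0.093 with a pseudocount of 1 and 0.1).

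Of the 7 lists, the one with the highest median in T against C was that of glucocorticoid receptor targets, which holds Foxo1, Foxo3, Ddit4 and Cdkn1a too. Of 21 tested genes 4 were called in T against C, all higher, namely Fkbp5, Zbtb16, Foxo1 and Foxo3, of which Foxo1 and Foxo3 are counted above already. At an unadjusted p under 0.05 there were 13 higher and 0 lower, with 18 above 0 and a median of 0.49. Foxo1, Foxo3, Ddit4 and Cdkn1a make up 4 of the 13 and 4 of the 18, and they enter the median. Of all tested genes 0.515% were called higher and 8.23% were higher at an unadjusted p under 0.05. Fkbp5, which codes for a co-chaperone that dampens the receptor, rose by 1.80 (SE 0.395, adjusted p = 0.0451 by edgeR), from 32.2, 19.1, 22.1 and 20.6 CPM in the C mice to 94.1, 42.8, 142 and 48.8 CPM in the T mice. Zbtb16 (PLZF), a zinc finger repressor, rose by 1.49 (SE 0.317, adjusted p = 0.0392 by edgeR). The T and C values of Fkbp5 did not overlap, and its call held in 6 of 16 fits with 1 library left out (adjusted p from 0.017 to 0.154). That of Zbtb16 held in 9 of 16 (from 0.0105 to 0.139). Without T3 and TE3 neither was called, with log2 fold changes of 1.39 (adjusted p = 0.132) for Fkbp5 and 1.23 (adjusted p = 0.139) for Zbtb16. With limma on FPKM at a pseudocount of 1 and 0.1 neither was called (adjusted p = 0.11 and 0.0934 for Fkbp5, 0.106 and 0.0918 for Zbtb16), and Fkbp5 was not called with only the 2 groups compared (0.0592). Trained tumor-free mice were above the C mice too. The E mice had 45.3, 66, 35.5 and 42.4 CPM of Fkbp5, and of Zbtb16 they had 65.7, 155, 82.6 and 112.8 CPM where the C mice had 44.2, 46.8, 38.7 and 42.8 CPM. Neither overlapped between E and C, but with log2 fold changes of 1.01 (adjusted p = 0.266 by edgeR) and 1.27 (adjusted p = 0.126) neither was called, and over the list 15 of 21 were above 0 in E against C with a median of 0.24. In TE against E Fkbp5 had 0.62 (adjusted p = 0.662) and Zbtb16 0.12 (adjusted p = 0.945), and the interaction gave -1.18 (adjusted p = 0.54) and -1.38 (adjusted p = 0.438). With its 4 overlapping genes set aside, 9 of 17 genes of this list were highest in both T3 and TE3, against 4 of 19 atrophy and autophagy targets, 0 of 10 muscle fibre markers, 4 of 9 adipocyte markers and 8.67% of all tested genes. These were Fkbp5, Mt1, Mt2, Cebpd, Cebpb, Sgk1, Dusp1, Errfi1 and Nfkbia. Glucocorticoid levels were not measured in the files used here, and their part in the values was not tested.

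Genes whose log2 CPM followed each of the 8 most closely over the 16 mice are given as a description, since the mice share the 4 groups. Foxo1 was followed by Abcc4 (r = 0.917), Tead2 (0.897) and St14 (0.886), and Foxo3 by Lbp (0.934), Sema3f (0.928) and Gucd1 (0.901). Foxo4 was followed by Hif1an (0.91), Kif1c (0.9) and Paip2b (0.88). Ddit4 was followed by Nfkbia (0.916), S1pr1 (0.896) and Enc1 (0.886), and Cdkn1a by Sema3g (0.92), Btbd7 (0.916) and Rasd1 (0.911). For Sesn1 they were Tmem176b (0.891), Rnf10 (0.838) and Fbln5 (0.834). Depp1 and Eif4ebp1 had looser followers, Pde8a (0.79), Kcnh1 (0.79) and Itprid2 (0.769) for the first and 4931413K12Rik (0.768), Arrdc3 (0.766) and Gm26908 (0.76) for the second. Lbp, which codes for an acute phase protein that binds lipopolysaccharide, ran from 7.67 to 9.19 CPM in C, from 10.8 to 15 in E, from 16.1 to 40.6 in T and from 13.2 to 23.2 in TE.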

How the data were processed

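Gastrocnemius RNA of 4 mice in each of 4 groups was measured, and groups and replicate numbers come from the labels. The authors deposited raw counts per gene, which were made, per the labels' processing notes, with fastp 0.20.1, HISAT2 2.1.0, HTSeq 0.11.2 and GRCm39. The authors also deposited FPKM, the counts per gene length and library total. The annotation release and strand setting are not given in the sources used here. The tables held 0 columns of other samples.

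Counts of all 16 libraries were tested with edgeR 4.0.16 in R 4.3.3 (filterByExpr, TMM, quasi-likelihood test, 1 coefficient per group). A gene was called at an adjusted p under 0.05 (Benjamini-Hochberg over 14749 genes, two-sided). Intervals are 95%. In 24 pairs of libraries within a group the chi-square of the counts was 13.4 to 65.8 per degree of freedom, so that each was kept as a sample. An exact count of 0 allows up to 3 counts (0.0842 CPM at most), for counting error only, since PCR copies cannot be told from molecules. The alternatives were DESeq2 1.42.0, its size factors in edgeR, no filter, the replicate number as a block, a fold change of 2 as well, limma 3.58.1 on log2(FPKM + 1) and log2(FPKM + 0.1), a fit of only the groups compared, and each library left out. Leaving out T3 and TE3 together was added after the values were seen. Correlations used 100000 permutations in Python 3.11.15 with scipy 1.17.1. The code was tested on simulated counts.

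The 8 genes, the gene lists and the tests were chosen with earlier results of these data known. The genes named beside the 8 are Foxo6, list genes called in any comparison (at most 4 a list, otherwise the 2 with the smallest p in T against C), and the 3 genes with the highest correlation to each. Others, such as Fbxo32, Trim63 and the genes highest in T3 and TE3, were named after their values were seen. No protein sequences were used here.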

Additional observations from a re-analysis of the deposited data

Results flagged for a closer look

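Among 32 sets of 4 mice (8 genes in 4 groups) 2 had a mouse whose gap to the nearest of the others took up more of the range in CPM than Dixon's 95% critical value allows, where chance gives about 1 in 20. For Ddit4 in the T group the gap was 0.932 of the range, with T3 at 72.8 CPM and the next mouse at 19.6. For Foxo4 in the C group it was 0.847, with C2 lowest at 90.9 CPM and the next mouse at 105.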

How the results depend on the processing

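The count of the 8 genes called in T against C (2) was 4 with DESeq2, 3 with no filter on low counts, and 0 with a fold change of 2 as well, with limma on log2(FPKM + 1) or log2(FPKM + 0.1), with only the 2 groups compared and without T3 and TE3. It ran from 0 to 4 with 1 library left out. The count for the average over training (3) was 4 with DESeq2 and with no filter, both adding Ddit4, 2 without T3 and TE3, 1 with the fold change and with either limma fit, and ran from 1 to 4 with 1 library left out. In the other 4 comparisons it was 0 in every setting run. The share of all genes called in each setting is not given here. Whether a higher count of the 8 only went with more calls among all genes was not tested. The fit of only the 2 groups compared could not be made for the average and the interaction.

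With a replicate block the counts were 2 in T against C and 2 in the average, where Cdkn1a was not called (adjusted p = 0.0636 by edgeR), and Cdkn1a in TE against T turned to 0.0298. Of the other genes named as called, the block removed the calls of Fkbp5 (0.0671 in T against C and 0.0796 in the average), Zbtb16 (0.0661 in T against C) and Gadd45a (0.075 in the average). Deviations of samples with the same number gave 24 correlations from -0.241 to 0.214, with 5 over 0.1. Between T and TE they were 0.0551, 0.107, 0.0945 and 0.0976. Samples of different numbers were not compared, so these values cannot settle whether the numbers pair the mice.

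Of 1184 alternative values for single genes 38 changed sign, and the cause was not tested. Without T3 and TE3 these log2 fold changes were -0.00859 for Eif4ebp1 (T against C), 0.000743 for Eif4ebp1 (TE against T), -0.24, -0.28 and -0.26 for Depp1 (T against C, TE against E and the average) and 0.35 for Cdkn1a (TE against T). With limma Sesn1 in TE against E was -0.0198 with a pseudocount of 1 and -0.0222 with 0.1, and Cdkn1a in TE against T was 0.13 with 1 and 0.15 with 0.1. With 1 library left out, the lowest and highest values were -0.0109 and 0.204 (Eif4ebp1, T against C), -0.131 and 0.056 (Eif4ebp1, TE against T), -0.0456 and 0.167 (Eif4ebp1, interaction), -0.0431 and 1.36 (Ddit4, TE against T), -0.43 and 0.97 (Ddit4, interaction), -0.24 and 0.93 (Depp1, T against C), -0.28 and 0.78 (Depp1, TE against E), -0.55 and 1.10 (Depp1, TE against T), -0.92 and 0.73 (Depp1, interaction), -0.013 and 0.0835 (Sesn1, TE against E), -0.00953 and 0.0694 (Sesn1, E against C), and -0.24 and 0.51 (Cdkn1a, TE against T). With 4 mice a group the precision of each difference is that of its interval.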
